A study of Mus musculus with 9 samples.

Results

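The genes described here are the expressed mouse Zfp genes, whose symbols are Zfp followed by a number. They were chosen by their level in untreated cells: the Zfp genes, Zfp36 left out, whose deposited log2 values averaged at least 1 over the 3 Control libraries. This rule found 289 genes among 318 Zfp genes and 15109 genes in all. Zfp36 encodes an RNA-binding protein of another finger type that destabilises cytokine messages. Messenger RNA was sequenced from bone marrow-derived mast cells (BMMC) of wild-type C57BL/6 mice, grown for at least 4 weeks in 20% serum and 30% medium conditioned by WEHI-3 cells, which secrete interleukin 3. Control cells (n = 3 libraries) were untreated. BSA cells (n = 3) were sensitised with anti-DNP-IgE and stimulated with DNP-BSA, the antigen that crosslinks IgE on its receptor. Taxinine cells (n = 3) received the same antibody and antigen and, before the antigen, 1 h of taxinine, a taxane diterpenoid of yew. The labels give no taxinine dose, no length of antigen exposure, no vehicle group and no group with taxinine alone. The Control cells differ from BSA in both antibody and antigen. The 3 libraries of a group are called biological replicates without a statement that they came from separate animals or cultures, so the spread behind each p-value may be technical.

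Most Zfp proteins carry tandem C2H2 zinc fingers, small folds that each hold a zinc ion and together read a stretch of DNA. Many also carry a KRAB domain, which recruits TRIM28 and through it SETDB1, a methyltransferase that marks histone H3 at lysine 9, to silence transposable elements and some genes. KRAB zinc finger genes lie largely in tandem clusters that expanded by duplication. Family members without KRAB include activators, chromatin scaffolds, RNA-binding proteins and ubiquitin ligases.

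Of the 289 genes, 286 are annotated as protein coding and 3 (Zfp125, Zfp783 and Zfp939) as transcribed pseudogenes. A KRAB profile matched 172 of the 286 proteins and left 114 without a match, with 1 transcript translated per gene. These 114 are called genes without KRAB below, and their other transcripts were not searched. The longest finger array held 34 fingers and the median protein 11, and 8 of the 286 proteins held no canonical finger. All 289 genes had a count in every library except Zfp108, which was at 0 in 1 BSA library. Just inside the limit were Zfp93 and Zfp536, both with a Control mean of 1.003, and just outside were Zfp114 at 0.873 and Zfp300 at 0.82. Of the 29 Zfp genes below the limit, 2 passed the test between BSA and Control, Zfp658 higher and Zfp72 lower. Exons of 71 of the 289 genes overlap another gene, and 67 genes share over 1% of their read-length windows with another gene. Of the genes named below, Zfp870, Zfp85, Zfp54, Zfp799, Zfp39, Zfp703, Zfp608, Zfp219 and Zfp106 overlap a gene on the opposite strand and Zfp595 and Zfp87 a gene on the same strand, and reads of such pairs may not be told apart.

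Promoter sequences are given for genes among those that moved most, including genes of 1 cluster that moved in opposite directions. Each of the following RefSeq windows (GRCm38.p6) runs 5′ to 3′ on the gene's strand from 250 bases before to 50 bases after an annotated start. Capitals mark the letter runs searched. Zfp760 and Zfp948 lie in 1 cluster on chromosome 17, the first lower and the second higher in BSA. Zfp39 was lower, and Zfp281, Zfp719 and Zfp57 were higher. For Zfp57 the windows of the first and the second annotated start are shown. A later Zfp57 window, chr17:37003416-37003715, held none of the runs searched.
Zfp760, chr17:21707491-21707790, plus strand: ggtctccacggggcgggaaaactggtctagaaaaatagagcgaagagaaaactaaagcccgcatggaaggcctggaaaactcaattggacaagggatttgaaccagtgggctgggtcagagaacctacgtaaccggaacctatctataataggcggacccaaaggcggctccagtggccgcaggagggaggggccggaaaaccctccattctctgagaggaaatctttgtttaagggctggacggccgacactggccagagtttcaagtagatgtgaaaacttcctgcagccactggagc
Zfp948, chr17:21566728-21567027, plus strand: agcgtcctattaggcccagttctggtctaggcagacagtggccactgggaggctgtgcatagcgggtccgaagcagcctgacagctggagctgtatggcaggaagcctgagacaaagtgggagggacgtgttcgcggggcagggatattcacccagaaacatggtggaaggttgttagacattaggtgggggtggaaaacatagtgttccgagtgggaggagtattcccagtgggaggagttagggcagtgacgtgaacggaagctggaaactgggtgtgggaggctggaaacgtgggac
Zfp39, chr11:58904176-58904475, minus strand: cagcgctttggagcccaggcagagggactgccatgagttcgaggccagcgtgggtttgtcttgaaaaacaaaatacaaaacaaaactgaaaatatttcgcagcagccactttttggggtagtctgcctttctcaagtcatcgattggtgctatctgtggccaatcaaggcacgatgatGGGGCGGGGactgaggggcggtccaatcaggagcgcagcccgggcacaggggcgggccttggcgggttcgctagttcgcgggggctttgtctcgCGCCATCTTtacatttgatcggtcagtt
Zfp281, chr1:136624651-136624950, plus strand: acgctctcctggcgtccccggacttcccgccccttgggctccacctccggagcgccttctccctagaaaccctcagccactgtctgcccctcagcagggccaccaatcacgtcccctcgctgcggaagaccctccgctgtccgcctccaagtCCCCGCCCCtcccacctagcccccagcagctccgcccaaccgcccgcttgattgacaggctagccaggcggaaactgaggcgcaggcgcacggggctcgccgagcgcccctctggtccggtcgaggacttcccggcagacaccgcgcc
Zfp719, chr7:43579336-43579635, plus strand: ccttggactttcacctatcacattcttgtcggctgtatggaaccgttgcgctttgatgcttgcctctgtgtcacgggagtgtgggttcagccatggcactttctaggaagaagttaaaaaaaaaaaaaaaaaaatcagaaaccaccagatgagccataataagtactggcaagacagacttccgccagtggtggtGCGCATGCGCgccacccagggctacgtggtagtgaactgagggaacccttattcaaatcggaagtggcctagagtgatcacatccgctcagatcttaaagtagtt
Zfp57, chr17:37000913-37001212, plus strand: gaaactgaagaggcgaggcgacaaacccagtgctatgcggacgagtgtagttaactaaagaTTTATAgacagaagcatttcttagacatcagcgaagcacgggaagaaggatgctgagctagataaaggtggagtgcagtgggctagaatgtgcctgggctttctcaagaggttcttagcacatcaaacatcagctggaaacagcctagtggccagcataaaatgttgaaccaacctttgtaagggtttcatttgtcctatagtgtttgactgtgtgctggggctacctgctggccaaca
Zfp57, chr17:37002275-37002574, plus strand: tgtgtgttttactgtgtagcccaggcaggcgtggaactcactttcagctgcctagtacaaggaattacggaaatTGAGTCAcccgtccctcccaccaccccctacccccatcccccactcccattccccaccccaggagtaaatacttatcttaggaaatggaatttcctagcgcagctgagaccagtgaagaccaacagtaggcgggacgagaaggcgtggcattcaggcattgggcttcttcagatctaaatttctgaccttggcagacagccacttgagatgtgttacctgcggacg

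In these windows the capitals are the SP/KLF run GGGGCGGGG and the YY1 run AAGATGGCG of Zfp39, the SP/KLF run of Zfp281, the NRF1 run GCGCATGCG of Zfp719, and the TATAAA and AP-1 runs of Zfp57. The 8 runs searched on both strands also included the cyclic AMP response element TGACGTCA, AP-1 as TGANTCA, EGR as GCGTGGGCG and ETS as CCGGAAG, and none of the 8 holds another. RefSeq windows were found for 240 of the 289 genes, 292 windows in all. The ETS run was in 21.2% of these windows, in 16.9% of the windows of all genes in the table and in 8.86% of all mouse windows. SP/KLF letters were in 5.08% of windows of KRAB genes, in 23.2% of those without KRAB, in 20.2% of the table's windows and in 11.4% of all mouse windows. The median GC content of a window was 52.7% for KRAB genes and 62.2% for those without KRAB. AP-1 letters were in 3.17% of windows of genes lower in BSA, in 1 of 18 windows of genes higher in BSA and in 5.39% of the table's windows. EGR letters were in 0.529% of windows of lower genes, in 0 of 18 windows of higher genes and in 1.19% of the table's windows. These matches are descriptions of letters and not of bound sites.

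Library totals were 8975371 to 14116976 counts, and the limit of 3 counts in a library was 0.192 to 0.347 CPM (reads of a gene per fixed number of reads in the library, with library totals scaled by TMM, edgeR's trimmed-mean normalisation). TMM factors were 1.102 to 1.107 in Control, 0.941 to 0.947 in BSA and 0.957 to 0.963 in Taxinine. All 15 mast cell markers were in the table, summing to 55570 to 57090 CPM in Control, 59880 to 61750 CPM in BSA and 59730 to 61030 CPM in Taxinine. Basophil markers (3 of 3 in the table) summed to 534.4 to 591.1 CPM in Control, 602.5 to 626.1 CPM in BSA and 541.3 to 565.8 CPM in Taxinine. Macrophage markers (7 of 8) summed to 60.02 to 61.3 CPM in Control, 66.2 to 72.03 CPM in BSA and 63.69 to 66.33 CPM in Taxinine. Pecam1, the only one of 5 endothelial or fibroblast markers in the table, was 504.0 to 509.1 CPM in Control, 564.0 to 584.2 CPM in BSA and 503.7 to 522.5 CPM in Taxinine. Neutrophil markers (1 of 8) summed to at most 0.946 CPM in any library. Eosinophil markers (2 of 4 in the table) summed to 12.49 to 14.14 CPM in Control, 23.99 to 28.92 CPM in BSA and 18.98 to 20.82 CPM in Taxinine. The mast cell, basophil, macrophage, Pecam1 and eosinophil sums were higher in every BSA library than in every Control library. Single mast cell markers moved both ways. Hdc, Tpsab1, Slc18a2, Il1rl1, Tpsb2, Cma1 and Cpa3 passed as rises, with Hdc going from a mean of 195 CPM in Control to 1208 CPM in BSA. Ms4a2 (2179 to 1713 CPM) and Mrgprb2 (48.4 to 42.4 CPM) passed as falls. Kit, Fcer1a, Fcer1g, Mcpt4, Gata2 and Mitf did not pass. Of the eosinophil markers, Siglecf had a mean of 4.27 CPM in Control and 15.1 CPM in BSA. Ccr3 had means of 9.08 and 11.1 CPM and did not pass. The part of these markers in the results was not tested. The antigen response was present: Fos was 29.1, 26.2 and 27.5 CPM in the Control libraries, 263, 222 and 243 CPM in BSA and 213, 217 and 208 CPM in Taxinine. Total RNA per cell was not measured, and in bulk libraries fewer cells of a type and less RNA per cell cannot be told apart.

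The first comparison asks how Zfp messages differ between antigen-stimulated and untreated mast cells. Of the 289 genes, 185 fell, 18 rose and 86 did not pass the test (edgeR's quasi-likelihood test, Benjamini-Hochberg adjusted p under 0.05 over all 15109 genes). Over all genes, 17.8% fell and 16.2% rose. Among the 11817 genes that met the same Control limit, 22.2% fell and 18.8% rose. The median log2 fold change was −0.48 over the Zfp genes and −0.004 over all genes. The Control libraries that chose the genes are also in this contrast, so genes near the limit are favoured to appear lower, and these counts are a description. Groups by level rest on the same Control values and are also a description. Among the 72 of highest Control level, 40 fell and 10 rose, with a median of −0.25. Among the 73 of lowest Control level, 40 fell and 2 rose, with a median of −0.74.

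The summed level of the 289 genes was 7618.9, 7267.5 and 7453.9 CPM in Control, 6407.9, 6516.4 and 6283.1 CPM in BSA, and 6687.3, 6593.7 and 6599.2 CPM in Taxinine. Control libraries were all above the others, and each Taxinine library was above each BSA library. KRAB genes summed to 2753.6 ± 73.0 CPM in Control, 2035.0 ± 74.1 CPM in BSA and 2235.1 ± 40.8 CPM in Taxinine (SD, n = 3 each). Genes without KRAB summed to 4669.7 ± 103.4, 4351.1 ± 49.2 and 4375.2 ± 15 CPM in the same order.

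Counts were set side by side for genes with and without a KRAB match, with no test of the difference. Of 172 KRAB genes, 129 fell and 6 rose, with a median of −0.67, against 53 lower and 12 higher of 114 genes without KRAB, with a median of −0.25. At least 2-fold falls were called for 59 of the 289 genes, 52 of them with KRAB, against 2.54% of all genes. Rises of at least 2-fold were called for 4 genes, against 3.68% of all genes. The Control and BSA libraries did not overlap for 197 genes that were lower and 24 that were higher, and for 42.9% of all genes in either direction.

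The genes were also grouped by the length of the finger array, again with no test. Of 106 genes with 10 to 14 fingers, 78 fell and 1 rose, and of 65 genes with 15 or more, 50 fell and 3 rose. Of 44 genes with 0 to 4 fingers, 19 fell and 9 rose. By KRAB and array length, 129 of 172 KRAB genes of any length fell, and 116 of the 151 with at least 8 fingers. Of the genes without KRAB, 32 of 57 with at least 8 fingers fell, and 21 of 57 with fewer fingers. The median transcript GC was 41.34% for KRAB genes, 50.91% for those without KRAB and 49.85% for all genes. Groups by GC are therefore not independent of groups by KRAB. Of 152 Zfp genes with a transcript GC below 45.2%, 110 fell, and of 44 above 54.6%, 19 fell. Of the other genes at the same Control limit, 20.2% and 22.6% fell in those GC ranges, the lowest and highest of 4 equal groups of the genes at that limit.

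**Figure D1:**
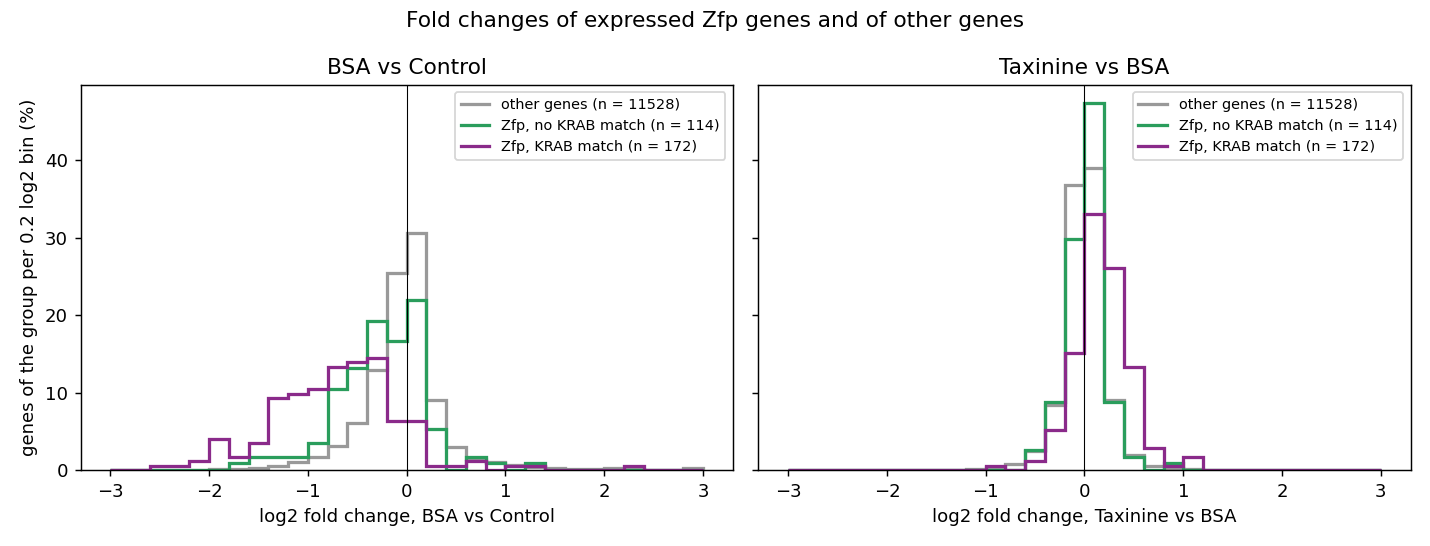
Distribution of log2 fold changes (x axis) for BSA against Control and Taxinine against BSA, as the share of each gene group per bin (y axis, %); values beyond ±3 are in the end bins. KRAB Zfp genes (n = 172) are shifted to the left of other genes at the same Control limit (n = 11528) in the first panel and slightly to the right in the second. Both panels use the same BSA libraries, so their shifts are not independent.

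The largest falls were in KRAB genes of low or moderate level. Zfp760, with 17 fingers, at chr17:21707741-21725636, was 14.9, 13.2 and 13.7 CPM in the Control libraries, 2.73, 4.18 and 2.73 CPM in BSA and 4.63, 4.18 and 4.53 CPM in Taxinine. Its log2 fold change from Control to BSA was −2.11 ± 0.14 (SE), adjusted p = 2.47e-16 (edgeR, Benjamini-Hochberg). Both stimulated groups were below every Control library. Zfp551, at chr7:12415153-12422751, was 3.44, 3.01 and 2.81 CPM in the Control libraries, 0.531, 0.394 and 0.728 CPM in BSA and 0.231, 0.856 and 0.831 CPM in Taxinine. It fell by the largest log2 ratio of the genes named here, −2.48 ± 0.32 (SE), adjusted p = 2.76e-08 (edgeR, Benjamini-Hochberg), at BSA values close to the 3-count limit. Zfp870, at chr17:32879219-32891642, was 5.62, 5.18 and 4.84 CPM in the Control libraries, 0.456, 1.34 and 1.55 CPM in BSA and 1.5, 1.24 and 1.96 CPM in Taxinine, and its change was −2.25 ± 0.25 (SE), adjusted p = 4.93e-10 (edgeR, Benjamini-Hochberg). All BSA values were below all Control values for each of these genes.

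Zfp799, a 17-finger gene at chr17:32815449-32830261 and a neighbour of Zfp870, was 13.3, 12.2 and 11.1 CPM in the Control libraries, 3.64, 3.47 and 2.46 CPM in BSA and 5.79, 3.71 and 3.85 CPM in Taxinine. Its change was −1.91 ± 0.15 (SE), adjusted p = 6.59e-14 (edgeR, Benjamini-Hochberg). Zfp54, at chr17:21423227-21435640, was 7.07, 6.27 and 7.26 CPM in the Control libraries, 1.59, 1.5 and 2.09 CPM in BSA and 2.08, 2 and 1.36 CPM in Taxinine, a change of −2.0 ± 0.19 (SE), adjusted p = 1.49e-11 (edgeR, Benjamini-Hochberg). Both had Taxinine values below those of every Control library. Zfp85, Zfp563, Zfp763, Zfp78, Zfp273 and Zfp39, all with KRAB, changed by −2.10, −1.97, −1.95, −1.91, −1.86 and −1.67 on the log2 scale. Zfp11, with 21 fingers and no KRAB match, changed by −1.70. Zfp85 and Zfp273 share identical stretches, in 7.41% and 5.13% of their windows of read length, so reads of these genes may have been split or lost in counting.

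Among the 72 genes of highest Control level, 2 fell at least 2-fold, and Zfp217 had the largest fall. It encodes a protein of corepressor complexes whose human counterpart is amplified in breast cancer. Zfp217, at chr2:170108643-170148103, was 93.5, 95.5 and 88.3 CPM in the Control libraries, 30.4, 33.9 and 30.6 CPM in BSA and 28.9, 27.3 and 30.1 CPM in Taxinine. Its log2 fold change was −1.54 ± 0.06 (SE), adjusted p = 1.46e-24 (edgeR, Benjamini-Hochberg). BSA values were about 30 to 34 CPM where Control values were 88.3 or higher, and Taxinine values were close to those of BSA.

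**Figure D2:**
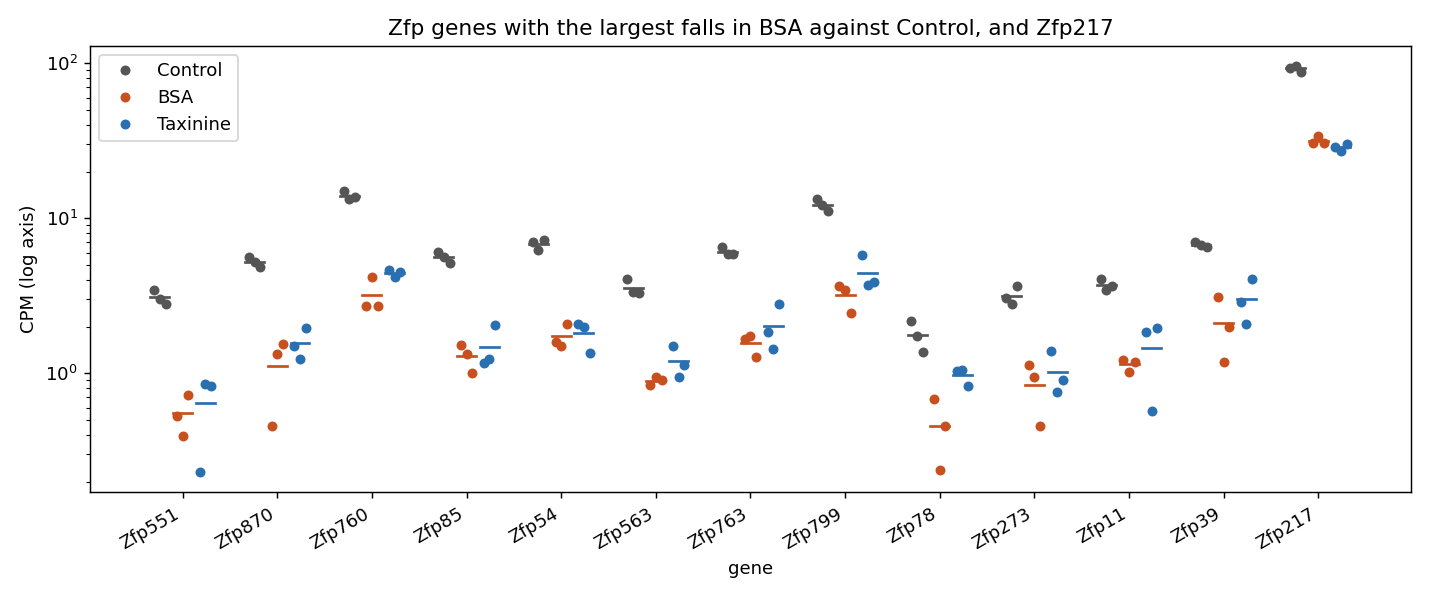
CPM on a log axis (y) for the 12 genes with the largest falls by the naming rule and for Zfp217 (x), with a point for each library (n = 3 per group) and a line at the group mean. BSA points lie below all Control points for every gene shown, and Taxinine points also lie below Control.

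The 18 genes that rose were 6 with a KRAB match and 12 without. Zfp57, a KRAB protein that binds methylated imprinting control regions and keeps their marks, rose most. Zfp57, with 3 fingers, at chr17:37001163-37010635, was 2.31, 2.62 and 1.7 CPM in the Control libraries, 10.6, 13.2 and 11.4 CPM in BSA and 9.37, 10.3 and 8.08 CPM in Taxinine. Its log2 fold change was 2.40 ± 0.16 (SE), adjusted p = 1.43e-16 (edgeR, Benjamini-Hochberg), and the groups did not overlap. Zfp281, at chr1:136624901-136630053, encodes a GC-box-binding regulator known from embryonic stem cells. It was 28.9, 24.2 and 28.7 CPM in the Control libraries, 70.7, 65.5 and 61.7 CPM in BSA and 64.5, 77.3 and 71.8 CPM in Taxinine, a change of 1.28 ± 0.07 (SE), adjusted p = 3.2e-19 (edgeR, Benjamini-Hochberg). Both rose in all 3 BSA libraries and stayed high in Taxinine.

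Zfp948, with 15 fingers, at chr17:21567008-21588699, was 13.9, 14.8 and 16.2 CPM in the Control libraries, 36.1, 36.2 and 34.1 CPM in BSA and 40.1, 31.3 and 36.9 CPM in Taxinine. Its change was 1.25 ± 0.08 (SE), adjusted p = 2.4e-16 (edgeR, Benjamini-Hochberg), against falls of its cluster neighbours Zfp760 and Zfp54. Zfp772, at chr7:7202117-7209998, was 4.23, 4.93 and 5.69 CPM in the Control libraries, 11.9, 10.3 and 9.37 CPM in BSA and 9.14, 10.1 and 9.37 CPM in Taxinine, a change of 1.09 ± 0.13 (SE), adjusted p = 6.56e-09 (edgeR, Benjamini-Hochberg). It lies near Zfp954 on chromosome 7, which also rose, by 0.46. Zfp703, known from luminal breast cells, and Zfp719, Zfp715, Zfp622 and Zfp131 rose by 0.84, 0.73, 0.71, 0.62 and 0.61 on the log2 scale. Zfp715 and Zfp719 are also near each other on chromosome 7.

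**Figure D3:**
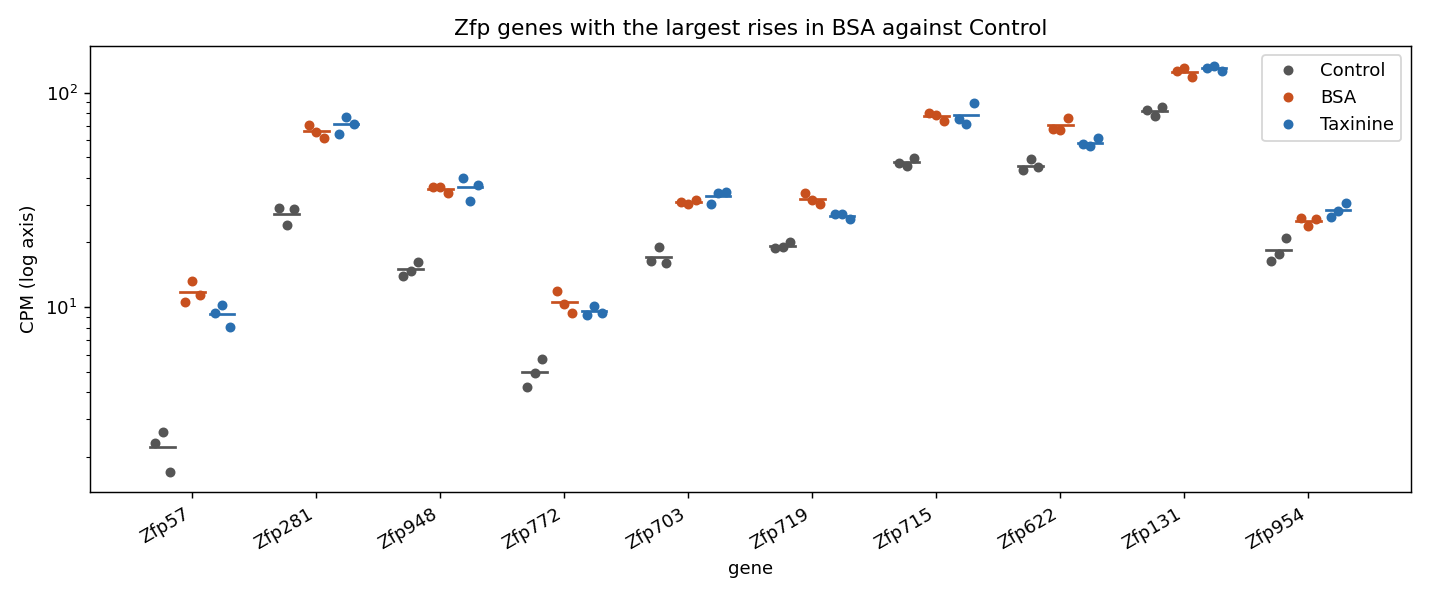
CPM on a log axis (y) for the 10 genes with the largest rises from Control to BSA (x), with a point for each library (n = 3 per group) and a line at the group mean. All BSA points lie above all Control points for each gene, and Zfp57 shows the widest gap.

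By position, 126 of the 289 genes lay in 14 clusters of at least 5 such genes whose starts were at most 500 kb apart (GRCm38, GENCODE M21). In the clusters 100 genes fell and 1 rose, with a median of −0.68, and outside them 85 of 163 fell and 17 rose, with a median of −0.29. The difference was smaller among KRAB genes, with 83 lower, 1 higher and a median of −0.79 in clusters, and 46 lower, 5 higher and a median of −0.58 outside. On chr17:21008903-23564238, 18 of 22 genes fell and Zfp948 rose. On chr13:67038596-67827002, 15 of 16 fell, with a median of −1.13, and on chr17:32765496-33631779 all 10 fell, with a median of −1.39. On chr4:147132038-147848366, 1 of 5 fell and the median was −0.02. Every gene of the first, second and last of these clusters carries KRAB, as do 9 of the 10 on chr17:32765496-33631779.

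**Figure D4:**
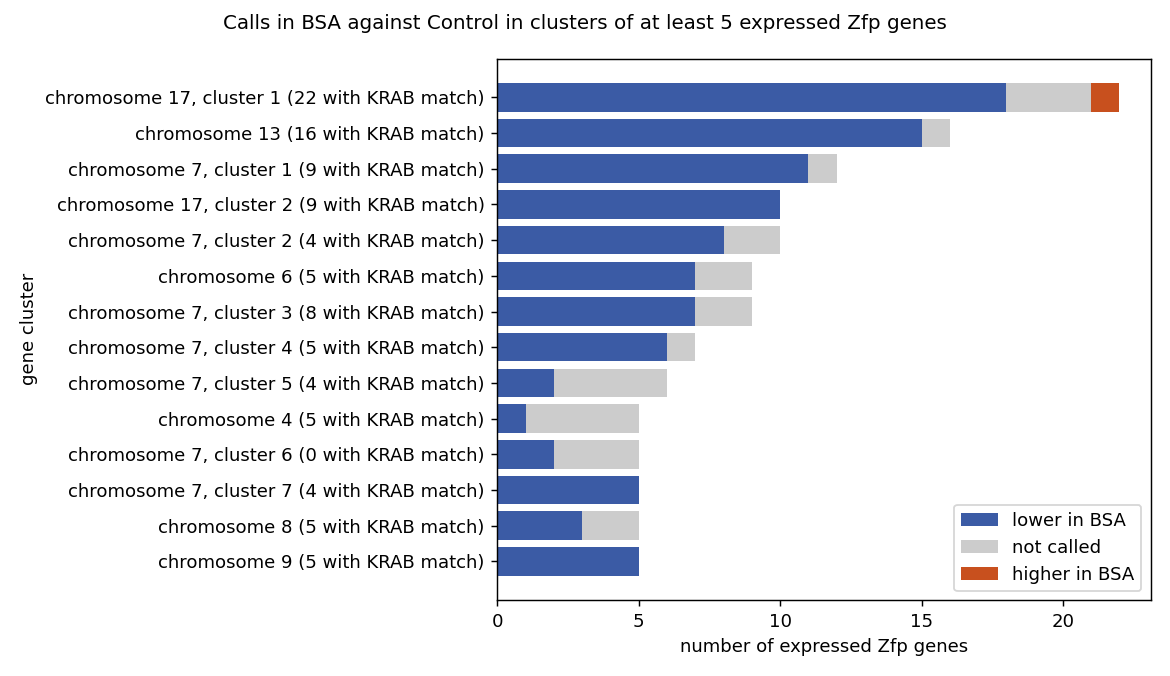
Number of expressed Zfp genes (x axis) in each of the 14 clusters (y axis), coloured by whether the gene was lower, higher or not called in BSA against Control. All 10 genes of the second chromosome 17 cluster were lower, and 1 of 5 on chromosome 4.

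The 8 most abundant Zfp messages changed by at most 0.29 on the log2 scale in either direction. Zfp207, which encodes a microtubule-associated protein that loads the checkpoint protein BUB3, was 370, 352 and 356 CPM in the Control libraries, 290, 298 and 296 CPM in BSA and 307, 307 and 307 CPM in Taxinine. It fell, with a log2 change of −0.29 ± 0.04 (SE), adjusted p = 1.76e-07 (edgeR, Benjamini-Hochberg), with no overlap of the groups. Zfp91, a ubiquitin ligase of noncanonical NF-kB signalling, was 318, 313 and 316 CPM in the Control libraries, 331, 326 and 307 CPM in BSA and 326, 325 and 314 CPM in Taxinine, and did not pass (log2 change 0.03 ± 0.04 (SE)). Per kilobase of transcript, the Control levels were 230 CPM per kb for Zfp207 and 57.1 CPM per kb for Zfp91, against a median of 4.22 CPM per kb. Of the other 6 most abundant genes, Zfp740, Zfp24, Zfp652 and Zfp704 fell, with log2 changes of −0.27, −0.25, −0.26 and −0.13, while Zfp292 and Zfp106 rose by 0.29 and 0.12. With plain library totals the change of Zfp106 turned to −0.11 and passed as a fall, that of Zfp292 was 0.06 and did not pass, and that of Zfp91 was −0.20 and passed as a fall. The call of Zfp704 was lost with DESeq2 and without Control 1, Control 3 or BSA 1, and that of Zfp106 without Control 2, Control 3 or BSA 1.

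Among 34 genes chosen because a role is known, 15 fell, 7 rose and 12 did not pass, beside 22.2% lower and 18.8% higher among all genes at the same Control limit. KRAB silencers of retroelements and imprinted genes moved in different directions. Zfp809, which silences murine leukaemia proviruses, was 21.6, 20.7 and 23.8 CPM in the Control libraries, 12.9, 13.9 and 12.6 CPM in BSA and 17.6, 16.5 and 18.7 CPM in Taxinine, a change from Control to BSA of −0.74 ± 0.09 (SE), adjusted p = 6.7e-09 (edgeR, Benjamini-Hochberg). Zfp568, which represses a placental Igf2 transcript, and Zfp445, another imprinting regulator, fell with log2 changes of −0.41 and −0.21, whereas Zfp57 rose. The call of Zfp445 was lost without Control 1 or BSA 3. Zfp932, which silences endogenous retroviruses, changed by −0.34, but 26.4% of its windows are shared with another gene. Zfp746, a KRAB repressor of Ppargc1a, fell, with a log2 change of −0.69.

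Zfp410, an activator known to act mainly on Chd4, was 38.1, 36.3 and 38.1 CPM in the Control libraries, 26.4, 30.2 and 26.6 CPM in BSA and 27.9, 29.9 and 27.9 CPM in Taxinine, and fell, with a log2 change of −0.43 ± 0.07 (SE). Chd4, the helicase of a nucleosome remodelling complex, was 323, 313 and 310 CPM in the Control libraries, 370, 417 and 408 CPM in BSA and 374, 362 and 377 CPM in Taxinine, a rise of 0.34 on the log2 scale. These messages moved in opposite directions. Among genes acting on RNA and ribosomes, Zfp622, a factor of large-subunit maturation, rose, while Zfp598, a ligase for collided ribosomes, had a change of −0.02 ± 0.07 (SE) and Zfp326, a splicing factor, −0.15 ± 0.17 (SE), neither passing. Zfp143, a promoter-binding activator, and Zfp451, a SUMO ligase, fell, with log2 changes of −0.25 and −0.26, the latter call being lost without Control 1. Zfp687, Zfp830, Zfp574 and Zfp318, the last known to set IgD splicing in mouse B cells, fell, with log2 changes of −0.47, −0.33, −0.43 and −0.38. Zfp148, Zfp263, Zfp335, Zfp384, Zfp521, Zfp592, Zfp638, Zfp644 and Zfp706 did not pass the test, with log2 changes from −0.19 to 0.11; with plain library totals Zfp521, Zfp638, Zfp644 and Zfp598 kept a negative sign and passed as falls (−0.42, −0.32, −0.30 and −0.25). With the same totals the sign turned for the other six, of which Zfp263 did not pass and the rest passed as falls.

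The partners of KRAB were measured as a list of 29 genes in the table. Trim28, the corepressor itself, was 200, 213 and 200 CPM in the Control libraries, 202, 206 and 218 CPM in BSA and 222, 236 and 234 CPM in Taxinine, and did not pass between BSA and Control (log2 change 0.03 ± 0.04 (SE)). Setdb1 did not pass either (−0.03 ± 0.06 (SE)). Of the 29, 7 fell and 5 rose, with a median of −0.04, shares of 24.1% and 17.2% that are close to the 22.2% and 18.8% of all genes at the Control limit. With plain library totals 24 fell and 3 rose, among them Trim28 (−0.20) and Setdb1 (−0.26) as falls, beside 45.6% lower and 7.16% higher of all genes. Tasor and Morc3, silencing factors of heterochromatin, and Cbx5, a reader of H3K9 methylation, fell, with log2 changes of −0.32, −0.28 and −0.22. Suv39h2, an H3K9 methyltransferase, rose by 0.81 from a mean of 3.44 ± 1.2 CPM (SD) in Control.

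The second comparison asks what taxinine changes in stimulated cells, and its fold changes use only BSA and Taxinine libraries. The spread between replicates was estimated over all 9, the Control libraries that chose the genes included. The BSA libraries are also in the first comparison, so the results of both are not independent. A deviation of the BSA libraries alone would move a gene in opposite directions in the first and second comparisons. Of the 289 genes, 20 rose, 8 fell and 261 did not pass (edgeR's quasi-likelihood test, Benjamini-Hochberg). Over all genes 2.86% rose and 4.12% fell, and at the same Control limit 3.62% and 5.2%. The median log2 fold change was 0.10 over the Zfp genes and 0.002 over all genes. Of the 20 genes that rose, 18 carry KRAB, and of the 8 that fell, 2 do. KRAB genes had a median of 0.19, and 134 of 172 were above 0. Taxinine and BSA libraries did not overlap for 75 genes that were higher and 22 that were lower, against 23.9% of all genes. These counts depend on method and on single libraries: DESeq2 called 5 higher and 4 lower, all among the 20 and 8. DESeq2 called 1.60% of all genes higher and 3.111% lower. With it the share of Zfp genes called was near the background for rises and below it for falls, both on few genes. Leaving out a library gave 8 to 25 higher and 2 to 8 lower, beside 1.53% to 3.65% of all genes higher and 2.55% to 4.83% lower, and the counts were lowest without the second Taxinine library. Higher and lower counts were 24 and 8 without Control 1, 25 and 8 without Control 2, 16 and 6 without Control 3, 9 and 5 without Taxinine 1, 8 and 2 without Taxinine 2, 8 and 3 without Taxinine 3, 13 and 5 without BSA 1, and 11 and 3 without BSA 3. With plain library totals 29 were higher and 5 lower, beside 4.28% and 3.15% of all genes.

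GC content moved with this comparison. Among other genes at the same limit, 158 rose and 103 fell in the GC-poorest of the 4 groups, and 50 rose and 246 fell in the GC-richest. The Zfp genes gave 14 higher and 1 lower of 152 in the poorest group and 1 higher and 3 lower of 44 in the richest. The median transcript GC was 41.34% for KRAB genes, 50.91% for those without KRAB and 49.85% for all genes. Its part in the taxinine result was not tested.

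Among named genes that rose, Zfp595, with 20 fingers, at chr13:67312998-67332570, was 9.39, 10.4 and 9.68 CPM in the Control libraries, 6.61, 5.75 and 4.55 CPM in BSA and 10.3, 7.89 and 9.14 CPM in Taxinine. Its log2 fold change from BSA to Taxinine was 0.67 ± 0.14 (SE), adjusted p = 0.00184 (edgeR, Benjamini-Hochberg), and Control and Taxinine values overlapped. Its exons overlap those of Gm28044 on the same strand. Zfp87, at chr13:67515781-67526177, was 22.1, 18.2 and 18.6 CPM in the Control libraries, 8.12, 9.77 and 8.46 CPM in BSA and 12.4, 13.5 and 13.5 CPM in Taxinine, a change of 0.58 ± 0.12 (SE), adjusted p = 0.000858 (edgeR, Benjamini-Hochberg), and lies between BSA and Control in every Taxinine library. Zfp568 was 13.8, 11.8 and 14 CPM in the Control libraries, 8.88, 11.3 and 9.64 CPM in BSA and 12.8, 16 and 14.2 CPM in Taxinine, a change of 0.54 ± 0.12 (SE), adjusted p = 0.00203 (edgeR, Benjamini-Hochberg). Zfp595, Zfp87 and Zfp568 were the 3 of the 20 that passed without each of the 9 libraries in turn.

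Zfp267, Zfp235 and Zfp808 rose by 0.65, 0.63 and 0.54, with 14.4% of windows of Zfp808 shared with Zfp934. Zfp809 rose by a log2 change of 0.42 ± 0.10 (SE), adjusted p = 0.0042 (edgeR, Benjamini-Hochberg). Among genes that fell, Zfp608 was 19.1, 19.3 and 18 CPM in the Control libraries, 23.8, 24.6 and 25.3 CPM in BSA and 18.6, 19.8 and 18.3 CPM in Taxinine, a change of −0.38 ± 0.09 (SE), adjusted p = 0.00279 (edgeR, Benjamini-Hochberg). Zfp503, a corepressor with no canonical finger, was 62, 59.6 and 58 CPM in the Control libraries, 67, 69.1 and 67.2 CPM in BSA and 52.5, 58.4 and 54.3 CPM in Taxinine, a change of −0.30 ± 0.06 (SE), adjusted p = 0.000564 (edgeR, Benjamini-Hochberg). Both passed without each library in turn, the 2 of 8 to do so. Zfp202, Zfp719, Zfp622 and Zfp219 fell, with log2 changes of −0.38, −0.27, −0.26 and −0.25. Zfp57 did not pass at −0.35 ± 0.13 (SE), nor did Zfp217 at −0.14 ± 0.07 (SE). With DESeq2 the calls of Zfp267, Zfp235, Zfp808, Zfp202 and Zfp719 were lost and those of Zfp809, Zfp608, Zfp503, Zfp622 and Zfp219 were made. Trim28 rose by 0.15 and Cbx5 by 0.18. The call of Trim28 was lost with DESeq2 and without Control 3, BSA 1, BSA 2, Taxinine 2 or Taxinine 3, and that of Cbx5 without BSA 1, BSA 3, Taxinine 1 or Taxinine 2.

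**Figure D5:**
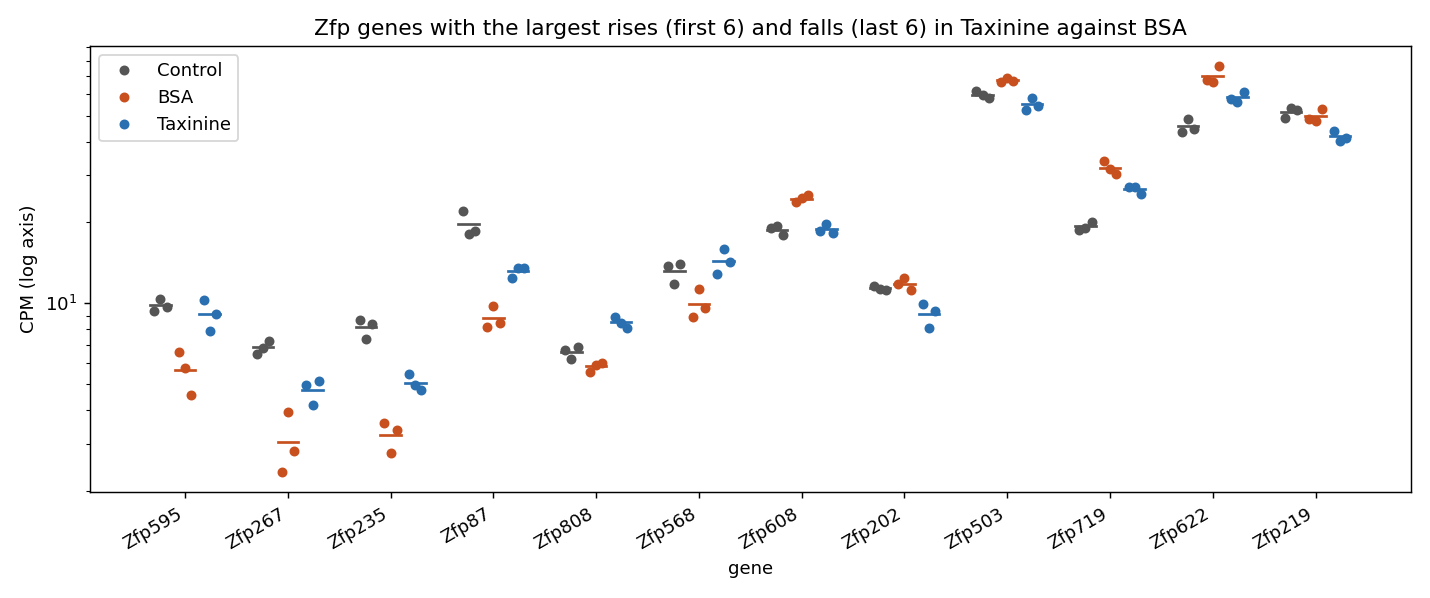
CPM on a log axis (y) for the 6 genes with the largest rises and the 6 with the largest falls from BSA to Taxinine (x), with a point for each library (n = 3 per group) and a line at the group mean. Taxinine points of Zfp87 lie between those of BSA and Control, and those of Zfp608 and Zfp503 lie below BSA.

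Set against Control, the Taxinine libraries had 162 of the 289 genes lower and 17 higher (edgeR's quasi-likelihood test, Benjamini-Hochberg), against 17.2% and 15.9% of all genes, and 21.5% and 18.5% at the same Control limit. Libraries did not overlap for 169 genes that were lower and 23 that were higher, against 43.7% of all genes. This comparison shares Control libraries with the first and Taxinine libraries with the second. The median was −0.32 over the Zfp genes. Falls of at least 2-fold were called for 39 genes, against 2.2% of all genes. Of KRAB genes 108 of 172 fell and 8 rose, with a median of −0.46, and of those without KRAB 52 of 114 fell and 9 rose, with a median of −0.21. For the largest falls, the changes from Control were −2.17 for Zfp551 in Taxinine and −2.48 in BSA, −1.65 and −2.11 for Zfp760, and −1.68 and −1.54 for Zfp217. For Zfp595 they were −0.12 and −0.79, for Zfp568 0.13 and −0.41, and for Zfp57 2.04 and 2.40.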

How the data were processed

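The deposited counts are whole-number read counts per gene. Their file is labelled as TMM-normalised, but the values are whole, their totals differ between libraries, and they were treated as unscaled; had they been scaled, the TMM step here would act on top of it. The deposited log2 values equal log2(CPM + 1) with plain library totals to within 5e-05 and chose the genes. STAR 2.7.0f, limma 3.11, mm10 and GRCm38 are named in the submitters' processing notes, whereas the annotation, counting program and use of strand were not given in the sources used. Libraries were stranded poly(A) libraries with paired reads of 101 bases, per the labels' protocols. Groups came from the labels. Counts were tested with edgeR 4.0.16 (TMM, quasi-likelihood, all 9 libraries, no block, Benjamini-Hochberg adjustment over 15109 genes, called under 0.05), after tests on simulated data. A TMM-scaled CPM is printed. Alternatives were plain totals, DESeq2 1.42.0 and its size factors, limma 3.58.1 on the deposited log2 values, a low-count filter, a replicate block, leaving out each library and other limits for the genes. Positions, transcripts and translated proteins, with 1 transcript per gene, came from GENCODE M21 (GRCm38). KRAB was called with a HMMER 3.4 profile built from 113 proteins (largest E-value 0.001). Genes were named as the 12 largest falls and 10 largest rises in BSA, the 6 largest of each for taxinine (called, groups not overlapping, mean log2 value at least 1), the 8 most abundant in Control, and 34 with a known role. Zfp708, Zfp462 and Zfp750, also on the list of known roles, were absent from the 15109 genes. The genes and all lists were chosen with earlier results of these data known.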

Additional observations from a re-analysis of the deposited data

How the results depend on the processing

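With plain library totals the median of all genes moved from −0.004 to −0.231 between BSA and Control, and the Zfp median to −0.71. The distance between them was −0.48 under both scalings. A change of scaling moves all genes nearly alike, so it cannot test that distance. With plain totals 11 Zfp genes were higher and 234 lower, beside 7.16% and 45.6% of all genes. With limma on the deposited log2 values 11 were higher and 232 lower, beside 7.08% and 44.9% of all genes. The Zfp median was then −0.59 and that of all genes −0.181, a distance of −0.41. For Taxinine against BSA, plain totals gave 29 higher and 5 lower (85.3% higher of those called, against 71.4%) with a median of 0.13, limma 27 higher and 4 lower with a median of 0.12, and DESeq2 5 higher and 4 lower, beside 4.28% and 3.15%, 4.70% and 3.24%, and 1.60% and 3.111% of all genes. For Taxinine against Control the median was −0.52 with plain totals, −0.314 with DESeq2 and −0.49 with limma. Choosing genes by the mean of the BSA and Taxinine columns left 270 and gave medians of −0.43 for BSA and −0.31 for Taxinine against Control; a Control limit of 3 left 208 and gave −0.355 and −0.285. A set of 177 genes with at most 1% shared windows and no exon overlap was chosen after seeing the data. In BSA 114 of them were lower and 15 higher, with a median of −0.501, beside 17.8% lower and 16.2% higher of all genes. In Taxinine against BSA 12 were higher and 5 lower (median 0.114), beside 2.86% and 4.12%. In Taxinine against Control 13 were higher and 96 lower (median −0.319), beside 15.9% and 17.2%.

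Leaving out each library gave 16 to 18 higher and 170 to 185 lower in BSA (median −0.50 to −0.45). Of all genes, 13.9% to 15.9% were then higher and 15.5% to 17.7% lower. In Taxinine against BSA, 8 to 25 were higher and 2 to 8 lower (0.077 to 0.114), beside 1.53% to 3.65% and 2.55% to 4.83% of all genes. In Taxinine against Control, 16 to 17 were higher and 146 to 164 lower (−0.34 to −0.32), beside 13.6% to 16.4% and 14.25% to 17.5%. Of 185 lower genes 158 passed without every library, and of 18 higher genes 15 did. Same-numbered libraries deviated with correlations of −0.106 to 0.091, and libraries of different numbers with −0.096 to 0.107. No deviation shared by number was seen. With 3 libraries per group, this cannot exclude that same-numbered libraries came from the same animal or culture. The replicate block gave 18 higher and 185 lower in BSA. It gave 24 and 7 in Taxinine against BSA, and 17 and 159 in Taxinine against Control. Directions turned between BSA and Control with plain totals and limma for Zfp106 (−0.11, −0.11), Zfp148 (−0.17, −0.17), Zfp263 (−0.12, −0.12), Zfp335 (−0.20, −0.19), Zfp384 (−0.13, −0.13), Zfp592 (−0.14, −0.13), Zfp706 (−0.18, −0.17) and Zfp91 (−0.20, −0.20). Zfp598 ranged from 0.01 to 0.042 without 1 of 3 libraries and Zfp644 was 0.007 without the first Control library. The cause of these changes was not tested. Depth limits the genes of lowest level, whose BSA values approach 3 counts.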

Other observations

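Other zinc finger families were read with the same test. KRAB zinc finger genes under other symbols at the same Control limit numbered 43, and 34 fell and 0 rose from Control to BSA (edgeR), with a median of −0.69; all 43 had a log2 fold change below 0. Of 133 genes with at least 3 C2H2 fingers, no KRAB match and other symbols, 48 fell and 24 rose, with a median of −0.09. Over all genes in the table, 17.8% fell and 16.2% rose, and at the Control limit 22.2% and 18.8%. The Zbtb, Zscan and Zkscan, and Klf groups also hold genes below that limit. They were drawn by symbol and share genes with the 43 and the 133 above, so these groups are not independent. Zbtb genes, whose proteins join fingers to a BTB dimerisation domain, had 19 lower and 6 higher of 35. Zscan and Zkscan genes, whose proteins carry a SCAN dimerisation domain, had 11 lower and 3 higher of 18. Klf genes had 2 lower and 6 higher of 13, with a median of 0.29.

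From BSA to Taxinine, where 2.86% of all genes rose and 4.12% fell, 3 of the 43 KRAB genes under other symbols rose and the other 40 did not pass, with a median of 0.22. In the overlapping groups by symbol, the Klf genes had 3 higher and 1 lower, the Zbtb genes 3 higher and 3 lower, and the Zscan and Zkscan genes 2 higher of 18.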
